A study of Mus musculus with 87 samples.

Results

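The LIM homeobox factors described here are 10 transcription factor genes, Lhx1, Lhx5, Lhx2, Lhx9, Lhx3, Lhx4, Isl1, Isl2, Lmx1a and Lmx1b. They were chosen by name and read by their row in all 13 differential expression tables of a mouse study of Suz12 isoforms, and all 10 were found among the 26171 gene symbols of each table. The study compared poly(A) RNA from 32 libraries, and chromatin immunoprecipitation sequencing (ChIP-seq) of Polycomb proteins and histone marks in 55 samples, in the mouse embryonic stem cell (ESC) line 129-B13 and in neuronal precursors (NP) made from it. ESC were kept in 20% serum with LIF, the cytokine that holds them undifferentiated. NP were made by growing embryoid bodies in low-attachment plates, adding retinoic acid on day 4 and harvesting on day 8.

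Suz12 is a core subunit of Polycomb repressive complex 2 (PRC2), and the groups differ in its exon 4, which is alternatively spliced. WT cells (3 ESC and 4 NP libraries) make both forms. CSex4 cells (2 and 2 libraries) include exon 4 constitutively, Deltaex4 cells (2 and 2) lack exon 4, and KO cells (3 and 2) are a full Suz12 knock-out. KO-L and KO-S cells (2 and 2 libraries each) are the KO with the long isoform, with exon 4, or the short isoform, without it, put back. KO-L3D and KO-S3D, in ESC only (2 libraries each), are KO cells with a long or short isoform that carries the 3D mutation, which lies downstream of exon 4, and is expressed from the Rosa26 locus. All rescue lines therefore carry the deletion of their KO parent. How many clones each genotype stands for, and whether libraries of 1 group come from separate cultures, is not given in the sources used here. The deposited tables are named as paired, so their p-values rest on the spread between libraries that is left after the authors' fit. That spread may be technical.

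LIM homeobox genes encode transcription factors with a pair of LIM domains, which bind partner proteins such as Ldb1, and a homeodomain, which binds DNA. Their combinations mark classes of neurons in the embryonic spinal cord and brain: Isl1, Isl2, Lhx3 and Lhx4 mark motor neurons, Lhx1 and Lhx5 mark interneurons and act in head formation, Lhx2 and Lhx9 mark dorsal interneurons and act in forebrain and limb, and Lmx1a and Lmx1b act in the roof plate and in midbrain dopamine neurons. In embryonic stem cells such developmental regulators are classical PRC2 targets: they carry trimethylation of histone H3 lysine 27 (H3K27me3), the mark PRC2 makes, on start sites rich in CG dinucleotides. Retinoic acid, used here to make NP, is a posteriorising signal that drives embryoid bodies towards hindbrain and spinal cord fates.

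The start sites of these genes lie in CG-rich sequence. RefSeq promoters (GRCm38.p6) were matched by symbol for 9 of the 10 members, 11 promoters in all. Over the 250 bases before the start site the median was 19 CG dinucleotides, with a range of 4 to 33, against a median of 6 over all 32851 promoters in the table. Lhx9 was at the low end and Isl1 at the high end. The 3 sequences below, each printed 5′ to 3′ on the gene's own strand with CG dinucleotides in capitals, show the member whose expression moved most in NP (Lhx1, chr11:84525535-84525784, minus strand), the CG-richest member (Isl1, chr13:116309689-116309938, minus strand) and one whose start site lay outside the authors' Suz12 regions (Lhx3, upstream start, chr2:26208250-26208499, minus strand).
Lhx1: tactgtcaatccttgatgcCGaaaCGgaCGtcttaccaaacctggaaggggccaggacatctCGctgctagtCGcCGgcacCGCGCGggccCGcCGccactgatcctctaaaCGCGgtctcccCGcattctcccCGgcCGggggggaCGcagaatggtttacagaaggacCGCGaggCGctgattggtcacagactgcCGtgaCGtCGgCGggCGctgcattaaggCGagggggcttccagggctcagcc
Isl1: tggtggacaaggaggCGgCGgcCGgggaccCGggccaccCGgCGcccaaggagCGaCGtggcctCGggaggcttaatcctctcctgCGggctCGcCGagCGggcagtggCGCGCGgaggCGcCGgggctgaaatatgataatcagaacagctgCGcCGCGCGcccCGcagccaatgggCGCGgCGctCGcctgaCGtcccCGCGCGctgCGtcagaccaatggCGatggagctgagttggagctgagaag
Lhx3: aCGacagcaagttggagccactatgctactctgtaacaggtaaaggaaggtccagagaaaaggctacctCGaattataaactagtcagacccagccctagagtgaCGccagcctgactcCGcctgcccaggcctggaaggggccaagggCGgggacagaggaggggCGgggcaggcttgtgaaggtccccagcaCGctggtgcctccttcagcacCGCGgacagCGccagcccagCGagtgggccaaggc
The Lhx1 window held 26 CG dinucleotides, the Isl1 window 33 and the Lhx3 window 11. The motif TGACGT, searched on both strands, was in 5 of the 11 member promoters, Lhx1 and Isl1 among them, and in 6.47% of all promoters of this length; it holds a CG itself. CCAAT, also searched on both strands, was in 5 of 11 and in 33.8% of all. Both motifs were chosen after the sequences had been seen, and a match is a description of the letters only.

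Every member lay at a region in both of the authors' ESC region lists. The lists hold 2865 Suz12 and 6882 H3K27me3 regions, made with DiffBind per the submitters' processing notes; which groups were compared, and in which direction, is not given in the sources used here, so the lists show where regions lie and not which group had more signal. A member counted as at a region when the gene, with an end within 2500 bp, met it. All 10 did so in the Suz12 list, against 11.4% of all genes, and all 10 in the H3K27me3 list, against 21.1%. Member regions were broad: the widest Suz12 region at each member had a median of 12753.5 bp (range 2855 to 18223 bp), against a median of 2307 bp over the list, and the widest H3K27me3 region a median of 19525 bp (9365 to 30147 bp), against 3144.5 bp.

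Lhx1, a gene of 7560 bp at chr11:84517975-84525534, lay wholly inside a Suz12 region of 13635 bp (chr11:84517207-84530841) and an H3K27me3 region of 19738 bp (chr11:84513991-84533728). Isl2 held the member region with the smallest value in the Suz12 list, 6.91e-74 as the authors give it, which was place 8 of the list (chr9:55538324-55547434). At Lmx1b the Suz12 region was the widest of the members, 18223 bp, and 4 H3K27me3 regions together covered 69619 bp. Lhx3 was the narrowest in both lists: its Suz12 region of 2855 bp (chr2:26201058-26203912) lay inside the gene and held neither of its 2 start sites, while its H3K27me3 region of 9365 bp covered the whole gene. Lhx5, at chr5:120431886-120441457, had a Suz12 region of 17294 bp and an H3K27me3 region of 20998 bp; the authors' value of the latter, 7.6e-17, was the weakest among the members' best H3K27me3 regions. Of the 11 start sites with a RefSeq promoter, 9 were inside a Suz12 region and 11 inside an H3K27me3 region.

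**Figure D1:**
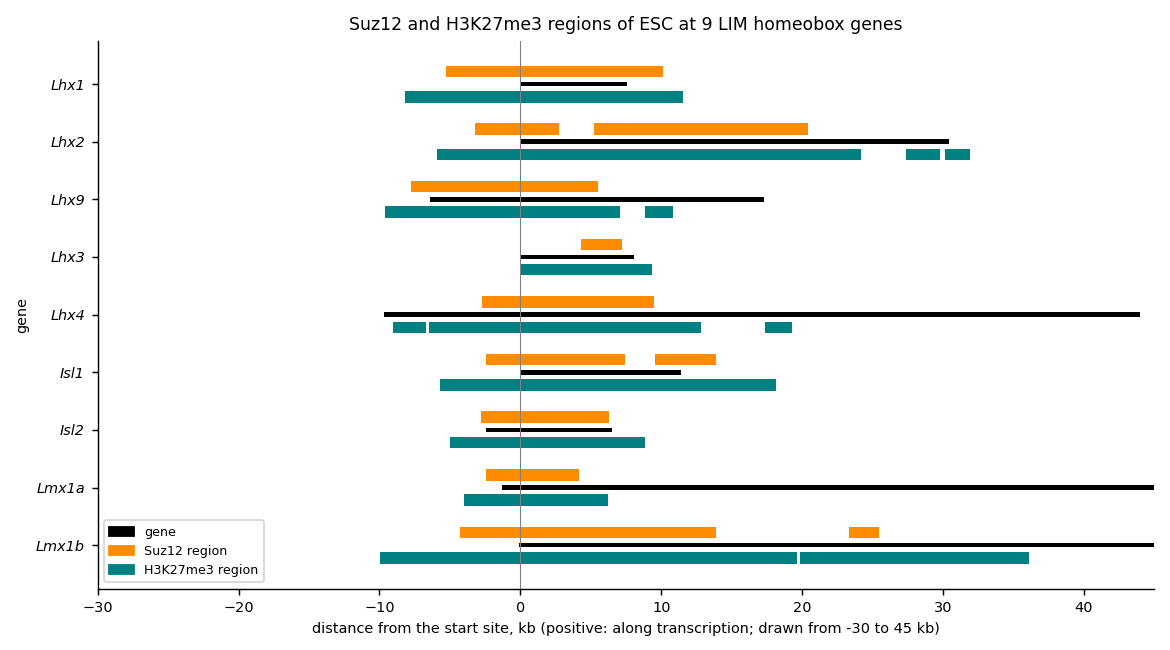
The map draws, for the 9 members with a RefSeq start site, the gene (black), the authors' Suz12 regions (orange) and H3K27me3 regions (teal) against the distance from the start site in kb, positive along transcription. At 8 of the 9 the drawn start site lies inside a Suz12 region, and at Lhx3 the Suz12 region lies downstream of it.

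For expression, the authors' deposited tables give each gene's mean over the libraries compared, its log2 fold change with standard error (SE), and p-values adjusted over all genes. From those means the number of reads in every single library could be solved for all 10 members in all 13 tables, as the processing summary explains. Values called scaled reads below are those reads divided by the library's size factor, on 1 scale within ESC and 1 within NP; they are not per length, so levels are compared between groups and not between genes. Libraries of a group carry arbitrary letters, since they could not be matched to replicate numbers. A member is called when the adjusted p that the authors' deposited table gives it is under 0.05; a gene with no adjusted p there was not tested.

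Markers fitted the labelled cell types in broad terms: over the authors' deposited tables the mean of Pou5f1, a pluripotency factor, was 25204 to 29536 in ESC and 970 to 4279 in NP, and that of Dcx, a marker of young neurons, 1.30 to 4.93 in ESC and 1042 to 5382 in NP. Several libraries stood apart. Summed gene means per table were 26085140 to 31499803 normalised reads. Among NP WT, library a had 4070 scaled reads summed over 4 neuron markers (Dcx, Map2, Stmn2, Elavl3), against 23086 to 27311 in libraries b to d, and 7437 summed over 5 pluripotency markers against 1675 to 3057. The 4 neuron markers summed to 1026 and 1305 in NP KO, 4205 and 5659 in the long and 5711 and 6400 in the short isoform rescue, 6444 and 6617 in CSex4, and 16366 and 20933 in Deltaex4. NP KO thus had few neuron transcripts: Dcx stood at 15.2 and 80.7 scaled reads, and Fabp7, a radial glia marker, at 1.01 and 4.55. In ESC, WT library c had 764 scaled reads over 4 endoderm markers against 16.0 and 17.1 in a and b. The NP CSex4 libraries were closer to each other than any other pair, with a chi-square of 1.47 per gene (p = 0.0101 over 61 genes) against 8.70 to 590 for the other 10 NP pairs. In bulk RNA, fewer cells of a type and less RNA per cell cannot be told apart.

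Suz12 itself, the targeted gene, was lower in KO: in the authors' deposited tables its log2 fold change was -1.82 ± 0.22 (SE) in ESC KO and -2.14 ± 0.33 in NP KO. In NP it was higher than in KO by 1.35 in KO-L and by 1.09 in KO-S on the log2 scale of the authors' deposited tables. Against WT in ESC the authors' deposited tables list -1.05 for KO-L, -0.83 for KO-S, -1.85 for KO-L3D and -0.06 for KO-S3D, the last with no call; Deltaex4 stands at -1.28, adjusted p = 1.00, and CSex4 at 0.02 in the authors' deposited tables.

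ESC without Suz12 had more RNA of several LIM homeobox genes. In the KO comparison (3 libraries against 3), 5 of the 8 members tested were called higher, namely Isl1, Lhx2, Lmx1a, Isl2 and Lmx1b, and 0 lower, where 11% of all genes tested were called higher and 7.27% lower. The median log2 fold change of the 10 members was 2.64, against 0.06 over all genes, and all 10 values lay above 0. Summed over the members, the 3 KO libraries held 332 to 434 scaled reads and the 3 WT libraries 50.4 to 53.4.

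Isl1, an early motor neuron and sensory neuron factor, had 3.81, 1.996 and 4.48 scaled reads in the 3 WT libraries and 75.6, 68.95 and 70.6 in the 3 KO libraries. Every KO library was above every WT library, and the KO libraries lay close together. The log2 fold change in the authors' deposited table was 4.42 ± 0.70 (SE), with an adjusted p of 1.14e-08, the largest of the 10 members. Isl2, its paralog in motor neurons, went from 6.67, 2.99 and 3.36 in WT to 31.1, 45.97 and 28.0 in KO, again without overlap. Its change in the authors' deposited table was 3.03 ± 0.80 (SE), adjusted p = 0.00209.

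Lhx2, a factor of forebrain, eye and hair follicle, had 11.4, 8.98 and 3.36 scaled reads in WT and 84.5, 65.95 and 78.9 in KO. The groups did not overlap, and the authors' deposited table gives 3.34 ± 0.59 (SE) with an adjusted p of 7.0e-07. Its paralog Lhx9 had 5.72, 3.99 and 4.48 in WT and 21.4, 22.98 and 13.5 in KO. These groups did not overlap either, yet at 2.01 ± 0.90 (SE) and adjusted p = 0.105 in the authors' deposited table Lhx9 was not called.

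Lmx1a, which specifies roof plate and dopamine neuron precursors, had 8.57, 3.99 and 5.602 scaled reads in WT and 68.5, 49.96 and 51.9 in KO. Every KO library was far above every WT library, and the authors' deposited table gives 3.26 ± 0.65 (SE), adjusted p = 1.22e-05. Lmx1b, its paralog, had 10.5, 23.95 and 21.3 in WT and 119, 49.96 and 103 in KO. The authors' deposited table gives it 2.26 ± 0.56 (SE), adjusted p = 8.88e-04, and its KO libraries were the most spread of the called members.

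Lhx1 and Lhx5, interneuron factors, stayed at low counts in ESC. Lhx1 had 0 to 1.91 scaled reads in WT and 6.23 to 13.3 in KO, and Lhx5 had 1.996 to 4.76 in WT and 10.4 to 16.0 in KO. Neither gene's groups overlapped, and neither was called: the authors' deposited table lists Lhx1 at 3.48 ± 1.55 (SE), adjusted p = 0.104, and Lhx5 at 2.04 ± 1.06 (SE), adjusted p = 0.180. Lhx3 and Lhx4, which act with Isl1 in motor neurons, were at the limit of detection, with at most 4 and 2 reads in any KO or WT library, and received no adjusted p.

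Some lists of lineage markers were higher in the ESC KO, and others were not. Over 4 trophoblast markers the KO libraries held 862 to 1357 scaled reads against 85.2 to 176 in WT, over 4 cardiac markers 217 to 247 against 23.0 to 34.3, and over 4 mesoderm markers 230.5 to 715 against 44.8 to 83.8. Of 4 tested in each list, 2 trophoblast, 3 cardiac and 3 mesoderm markers were called higher and 0 lower. The background was 11% higher and 7.27% lower. Of 4 endoderm, 4 neuron, 3 neural precursor and 3 fibroblast-like markers tested, 0 were called. Over 4 endoderm markers KO held 228 to 259 and WT 16.0 to 764. Dcx, the only neuron marker with reads recovered in all ESC tables, was at 0 to 3.56 in KO and 0 to 2.24 in WT. The part of other cell types in the higher LIM homeobox RNA was not tested.

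Among the other ESC lines, only the one labelled KO-L3D had called members, and its Suz12 RNA stood as low as in the KO, at -1.85 ± 0.28 (SE) beside -1.82 ± 0.22 (SE), with KO-S3D at -0.06 ± 0.42 (SE), in the authors' deposited tables. There 2 of the 6 tested were called higher and 0 lower, against a background of 8.22% higher and 10.1% lower. Lhx2 had 95.9 and 24.9 scaled reads in the 2 KO-L3D libraries, both above the 3 WT libraries, and the authors' deposited table gives 3.18 ± 1.12 (SE), adjusted p = 0.0297. Isl1 had 53.2 and 33.9, also above WT, at 3.79 ± 1.36 (SE) and adjusted p = 0.0339 in the authors' deposited table. Both calls ended at an adjusted p threshold of 0.01.

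The 2 libraries of several ESC lines differed in the members together. In KO-S3D, library a was above library b in 9 members and below in 0, and its summed members were 317 scaled reads against 54.9. Lhx1 is the extreme case, with 55.5 in KO-S3D library a and 1.19 in b. In KO-L3D library a was the higher in 9 of 10 members (430.4 against 114 summed), in KO-L in 8, with 1 lower (219.9 against 70.9), and in Deltaex4 in 1, with 8 lower (11.8 against 73.7). Mesoderm markers split some of the same libraries: 4 of them summed to 5297 and 105 in KO-S3D libraries a and b, and to 5456 and 1326 in KO-L3D. In KO-L they summed to 538 and 298, and in Deltaex4 to 115 and 57.0, the opposite order to the members there. Their part in the members' difference was not tested.

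In the remaining ESC comparisons no member was called. The tested members numbered 1 in CSex4 (background 1.72% higher, 0.695% lower), 10 in Deltaex4 (0% and 0%), 1 in KO-L (1.46% and 0.771%) and 2 each in KO-S (4.28% and 3.63%) and the short-isoform mutant KO-S3D (2.05% and 1.18%). At an unadjusted p under 0.05 the count was 0 in the first 4 of these and 1 in KO-S3D, where Lhx1 stands at 4.47 ± 2.18 (SE), p = 0.0398, in the authors' deposited table. In Deltaex4 the median over the members was -1.33 against 0.02 over all genes, at levels of 0 to 32.4 scaled reads. These tables compared 2 libraries with the same 3 WT libraries, of which WT library a carried almost no weight in the fit.

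In the ESC rescue with the short isoform the members summed to 55.1 and 69.5 scaled reads, beside 50.4 to 53.4 in WT and 70.9 and 219.9 with the long isoform. Isl1 stood at 4.21 and 1.10 scaled reads in KO-S and 43.8 and 9.67 in KO-L, where WT had 1.996 to 4.48. Isl2 had 1.05 and 0 in KO-S, where KO-L had 21.4 and 1.07. Lhx2 was at 22.1 and 24.3 in KO-S, above all 3 WT libraries, and at 43.8 and 3.22 in KO-L. Differences between comparisons could be tested for few members, and none passed an adjusted p of 0.05. KO-S minus KO-L, from log2 fold changes of the authors' deposited tables, was 0.80 (95% interval -3.30 to 4.90) for Lhx2 and -0.83 (-4.09 to 2.42) for Lmx1b, 0 of 2 members where 3.94% of all genes differed. KO-L minus KO was -2.09 for Lhx2 (-5.35 to 1.16), -1.66 for Isl1 (-5.16 to 1.84), -1.54 for Lmx1a (-5.05 to 1.98) and -1.84 for Lmx1b (-4.34 to 0.65) from the authors' deposited tables, 0 of 4 members where 0.589% of all genes differed. KO-S minus KO was -1.30 (-4.28 to 1.69) for Lhx2 and -2.68 (-5.29 to -0.07) for Lmx1b, adjusted p = 0.398 for the latter, from the authors' deposited tables, 0 of 2 members where 3.76% of all genes differed. The 3D mutants did not differ from their unmutated rescue in any of the 3 members tested for the long isoform (4.88% of all genes) or the 2 for the short one (0.732%), nor did Deltaex4 differ from CSex4 in the 1 member tested (0.0766%). The intervals of KO-L minus KO hold both 0 and the whole of the KO's own change.

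**Figure D2:**
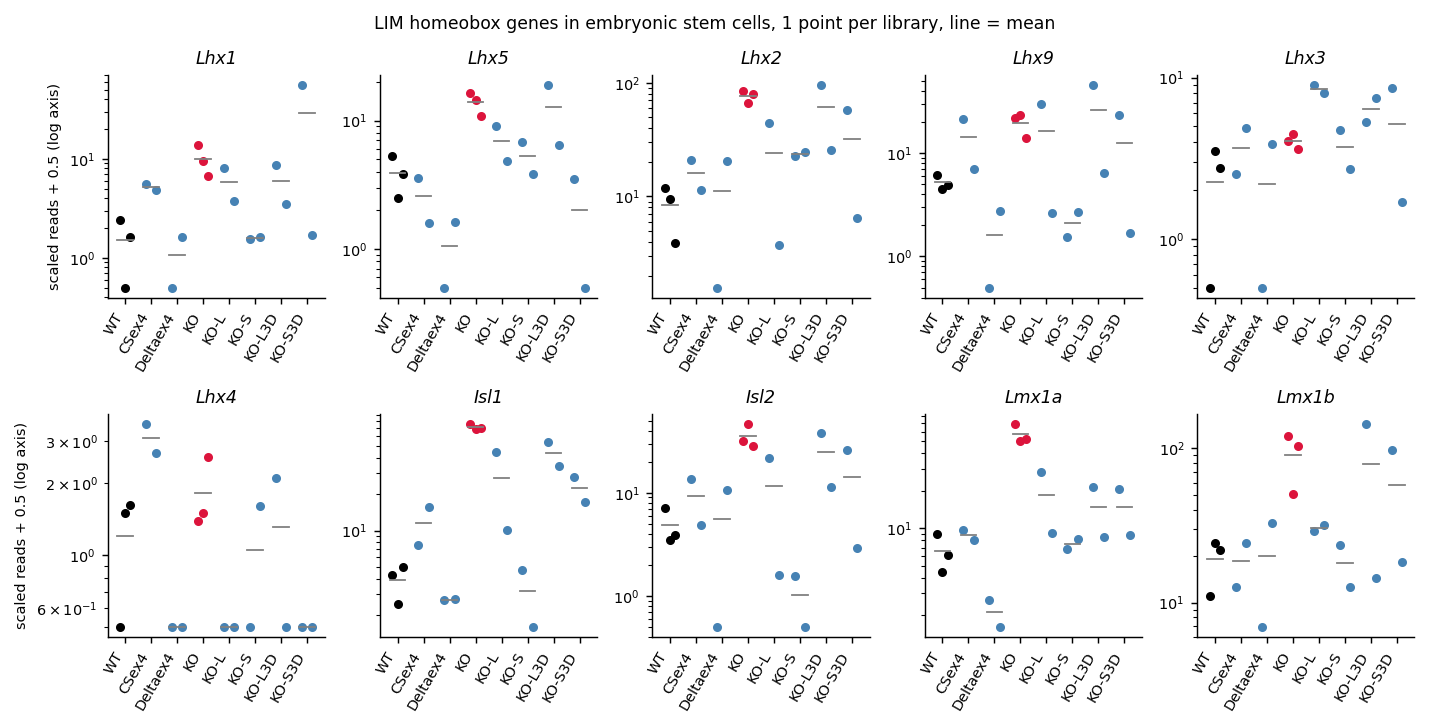
Scaled reads per library in ESC, plus 0.5 so that zeros can be drawn, on a log axis for each member; every point is 1 library and the line is the group mean. The 3 KO libraries (red) lie above the 3 WT libraries (black) for Lhx1, Lhx5, Lhx2, Lhx9, Isl1, Isl2, Lmx1a and Lmx1b, and pairs such as KO-S3D for Lhx1 (55.5 and 1.19) are far apart. Such separation was not counted over all genes, and Lhx1, Lhx5 and Lhx9 were not called.

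In NP, after retinoic acid, single members were called in both directions: without Suz12, Lhx1 and Lhx5 were lower and Isl2 was higher. The authors compared the same 2 KO libraries with WT in 2 tables, once with WT libraries a and b and once with c and d. Against WT a and b, 1 of 9 tested members was called higher and 2 lower, where 11.6% of all genes tested were called higher and 9.85% lower. The count called higher is thus near the share over all genes and shows nothing about the family as a whole. With WT c and d over KO, 2 members were higher in WT (Lhx1, Lhx5) and 3 lower in WT (Isl1, Isl2, Lmx1b), beside 15.6% and 17.3% of all genes. Both tables share the KO libraries, so they are not independent; Lhx1, Lhx5 and Isl2 are called in the same direction in both.

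Lhx1 had 747, 6214, 4102 and 6077 scaled reads in NP WT libraries a to d and 147 and 158 in the 2 KO libraries. The KO pair lay below every other NP library. The change was -3.82 ± 0.55 (SE), adjusted p = 2.41e-10, in the authors' deposited table against WT a and b, and 5.03 ± 0.29 (SE), adjusted p = 1.04e-64, in the authors' deposited table of WT c and d over KO. WT library a, the library low in neuron markers, is also the low Lhx1 library. The ratio of KO to WT means was -4.51 on the log2 scale with libraries a and b, -5.34 with b alone, -5.16 with b, c and d, and -2.29 with a alone, where Lhx1 was still lower in both KO libraries. Such ratios of means take no account of pairs, while the deposited tables are named as paired.

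Lhx5, a close relative of Lhx1 found in the same interneuron classes, ranked the 4 WT libraries in the same order. Its WT libraries had 226, 1614, 863 and 1253 scaled reads and its KO libraries 32.5 and 57.96. The authors' deposited table gives -3.79 ± 0.65 (SE), adjusted p = 1.73e-07, against WT a and b, and 4.58 ± 0.37 (SE), adjusted p = 1.64e-32, for WT c and d over KO. The log2 ratio of means, again without regard to pairs, was -4.33 with WT libraries a and b, -4.77 with b, c and d, and -2.31 with a alone.

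Isl2 moved the other way. It had 34.8, 16.6, 24.9 and 19.1 scaled reads in NP WT and 129.9 and 139 in KO, the highest of all NP libraries. The authors' deposited table gives 2.47 ± 0.75 (SE), adjusted p = 0.00754, against WT a and b, and -2.62 ± 0.68 (SE), adjusted p = 6.82e-04, for WT c and d over KO. Isl1 had 161, 102, 99.5 and 75.4 in WT and 290.2 and 220.5 in KO, so its KO libraries too were the highest of the NP series. It was called only against WT c and d, at -1.55 ± 0.48 (SE), adjusted p = 0.00583, and stood at 0.98 ± 0.55 (SE), adjusted p = 0.213, against a and b, both in the authors' deposited tables.

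Lmx1b and Lmx1a differed between the WT pairs themselves. Lmx1b had 359.6 and 331 scaled reads in WT a and b but 141 and 122 in c and d, and 505 and 369 in KO. Against a and b the authors' deposited table gives 0.33 ± 0.44 (SE), adjusted p = 0.681, and for c and d over KO it gives -1.72 ± 0.41 (SE), adjusted p = 1.68e-04. Lmx1a ran opposite in WT, with 82.1 and 67.3 in a and b and 164 and 166 in c and d, and 216 and 122 in KO, where neither authors' deposited table calls it (1.13, adjusted p = 0.219, and 0.02, adjusted p = 0.984). Lmx1b was thus called against one WT pair only, and the labels used here do not say how the pairs differ.

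The remaining members were not called against either WT pair. Lhx2 spread widely in WT, at 55.3, 282, 60.9 and 129 scaled reads, with KO at 222 and 151 inside that range. Lhx9 had 9.81, 9.76, 2.62 and 4.02 in WT and 14.2 and 20.5 in KO, above WT but at 14 and 18 reads. Lhx3 had 23.2, 35.1, 28.1 and 54.3 in WT and 20.3 and 12.5 in KO. Lhx4 had 2 to 5 reads per WT library and 1 and 3 in KO.

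With either isoform put back, Lhx1 was higher and Isl2 and Lmx1b were lower than in the KO. In KO-L over KO, 2 of 9 tested members were higher and 4 lower (background 10.9% higher, 13.8% lower), and in KO-S over KO 3 were higher and 3 lower (16.4% and 18%). Both comparisons use the same 2 KO libraries, so the values are given side by side. Lhx1 had 638 and 774 scaled reads with the long isoform and 1190.1 and 1425 with the short one, where KO had 147 and 158. The authors' deposited tables give 2.204 ± 0.31 (SE), adjusted p = 2.93e-11, for KO-L and 3.09 ± 0.25 (SE), adjusted p = 5.00e-34, for KO-S. All 4 rescue libraries lay above KO and below WT libraries b, c and d, and WT library a fell among them.

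Lhx5 had 108 and 139.6 scaled reads in the long and 129 and 89.5 in the short isoform rescue, above the KO's 32.5 and 57.96 and below all 4 WT libraries. It was called in KO-L (1.49 ± 0.60 SE, adjusted p = 0.0497) and not in KO-S (1.30 ± 0.63 SE, adjusted p = 0.0983) in the authors' deposited tables, and KO-S minus KO-L was -0.19 (95% interval -1.897 to 1.51), not past the threshold. The KO-L call sits at the threshold and is lost when p-values are adjusted over all genes with a p.

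Isl2 fell to 21.1 and 9.97 scaled reads in KO-L and to 4.10 and 5.33 in KO-S, from 129.9 and 139 in KO. The KO-L pair straddled the low end of WT, and the KO-S pair lay below all 4 WT libraries. In the authors' deposited tables the changes are -3.17 ± 0.69 (SE), adjusted p = 4.10e-05, and -4.84 ± 0.78 (SE), adjusted p = 8.89e-09. KO-S minus KO-L was -1.67 (95% interval -3.71 to 0.36), not past the threshold. Isl1 fell in KO-L, to 60.2 and 106 (-1.66 ± 0.47 SE, adjusted p = 0.00312, in the authors' deposited table). In KO-S it had 169 and 189, above all 4 WT libraries, and was not called (-0.50, adjusted p = 0.329, in the authors' deposited table); the difference between the rescues was 1.16 (-0.04 to 2.35), adjusted p = 0.269.

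Lmx1a had the largest difference between the rescues among the members tested. It had 216 and 122 scaled reads in KO, 27.4 and 14.96 with the long isoform and 296 and 373 with the short one, with WT at 67.3 to 166. The KO-L pair was the lowest and the KO-S pair the highest of all NP libraries, on opposite sides of WT. The authors' deposited tables give -2.997 ± 0.60 (SE), adjusted p = 6.15e-06, for KO-L and 1.03 ± 0.39 (SE), adjusted p = 0.0284, for KO-S. The difference, KO-S minus KO-L, was 4.03 ± 0.71 (SE), 95% interval 2.63 to 5.43, adjusted p = 1.20e-06 over all genes by the test on the difference of the authors' deposited log2 fold changes, where 10.3% of all genes differed.

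Lhx2 separated them the other way. It had 290.3 and 421 scaled reads in KO-L and 79.0 and 54.3 in KO-S, on either side of the KO's 222 and 151, with WT at 55.3 to 282. In the authors' deposited tables KO-L stands at 0.93, adjusted p = 0.0703, and KO-S at -1.48 ± 0.48 (SE), adjusted p = 0.00778. The difference was -2.41 ± 0.62 (SE), 95% interval -3.63 to -1.20, adjusted p = 0.00215 over all genes. KO-L and KO-S thus differed in 2 of the 9 members tested, Lhx2 and Lmx1a.

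Lmx1b fell in both rescues, to 273 and 198 scaled reads in KO-L and 135 and 112 in KO-S (-0.89 ± 0.33 SE, adjusted p = 0.0315, and -1.81 ± 0.34 SE, adjusted p = 1.08e-06, as the authors' deposited tables give them). The KO-S pair lay at 112 to 135 beside WT c and d at 122 and 141, and the KO-L pair lay between the WT pairs; their difference was -0.92 (95% interval -1.85 to 0.01), adjusted p = 0.253. Lhx3 had 57.0 and 49.9 in KO-L and 69.8 and 95.9 in KO-S, against 20.3 and 12.5 in KO. KO-S, where Lhx3 was above all 4 WT libraries, was called at 2.34 ± 0.77 (SE), adjusted p = 0.00985, and KO-L was not, as the authors' deposited table puts it at 1.74 and adjusted p = 0.160. The 95% interval of their difference ran from -1.72 to 2.93.

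Lhx9 and Lhx4 stayed low. Lhx9 had 5.28 and 8.73 scaled reads in KO-L and 5.13 and 10.7 in KO-S, below the KO pair and with no call. Lhx4 had at most 2 reads in any rescue library.

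**Figure D3:**
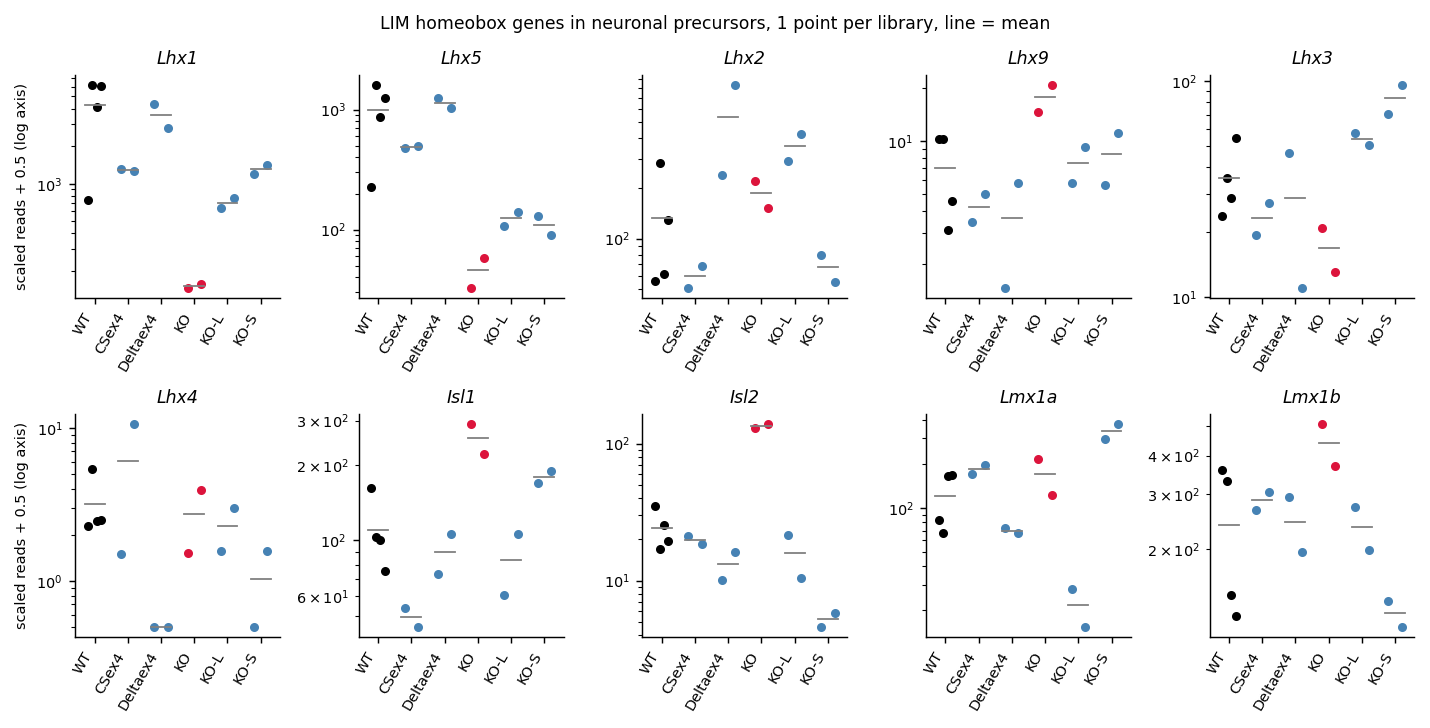
Scaled reads per library in NP, plus 0.5, on a log axis for each member; every point is 1 library and the line is the group mean. The 2 KO libraries (red) are the lowest for Lhx1 and Lhx5 and the highest for Isl1, Isl2 and Lhx9, and KO-L and KO-S lie on opposite sides for Lmx1a and Lhx2.

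Cell type markers moved with these comparisons in NP. Over 4 neural precursor markers (Sox1, Pax6, Hes5, Fabp7) KO held 638 and 1021 scaled reads, KO-L 739 to 988, KO-S 4526 to 4786 and WT 3774 to 10999. The sums of KO and KO-L hide opposite moves. Of the 5 neural precursor markers tested in KO-L over KO, Fabp7, Hes5 and Nes were called higher and Sox1 lower. The background there was 10.9% higher and 13.8% lower. Over 5 pluripotency markers KO-L held 11757 to 17010 against 2305 to 2891 in KO-S. Endoderm markers, 2 with recovered reads (Sox17, Foxa2), ran from 2623 to 3904 in KO and from 573 to 1891 in WT. Cardiac markers summed to 569 and 1142 in KO and to 53.3 to 211 in WT. Neither list moved as a whole in KO against WT a and b. Of 5 endoderm markers tested, 3 were called higher and 1, Afp, lower. Of 3 cardiac markers tested, 2 were called higher and 1, Tbx5, lower. The background there was 11.6% higher and 9.85% lower. The part of these markers in the members' changes was not tested.

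The exon 4 lines left the family with no called member in NP. In CSex4, 0 of 8 tested members were called (background 4.08% higher, 1.45% lower), and in Deltaex4 0 of 9 (0.0289% and 0.052%), with 2 and 1 members at an unadjusted p under 0.05. Both lines were compared with WT libraries a and b. Lhx1 had 1319 and 1258 scaled reads in CSex4, between WT library a and the other 3, and 4386 and 2773 in Deltaex4, among the WT libraries; against WT a and b the authors' deposited tables give -0.75 and 0.69, adjusted p = 0.569 and 1.00. Lhx5 had 478 and 499.5 in CSex4 and 1259 and 1029 in Deltaex4. Ratios of means take no account of pairs, unlike the deposited values, which are named as paired. The log2 ratio of the CSex4 mean to the WT mean for Lhx1 was -1.43 with WT a and b and -2.08 with b, c and d, and it turned to 0.79 with a alone. For Lhx5 it was -0.91, -1.35 and 1.11 in the same order, so the side on which CSex4 lies depends on the WT library.

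Lhx2 was the member nearest to a call. Deltaex4 had 239 and 835 scaled reads and CSex4 50.4 and 68.3, with WT at 55.3, 282, 60.9 and 129. In the authors' deposited tables Deltaex4 stands at 1.83 ± 0.45 (SE), adjusted p = 0.0528, and CSex4 at -1.10, adjusted p = 0.504. The difference between the lines, Deltaex4 minus CSex4, was 2.93 ± 0.83 (SE), 95% interval 1.30 to 4.56, adjusted p = 0.0295, and Lhx2 was the 1 member of 8 to differ, where 1.78% of all genes did. The 2 Deltaex4 libraries lay far apart, 1 of them below WT library b, and neuron markers were higher in Deltaex4 (16366 and 20933) than in CSex4 (6444 and 6617). Pluripotency markers, 5 of 7 with recovered reads, ran the other way, at 25658 and 26028 scaled reads in CSex4, 2862 and 5512 in Deltaex4 and 1675 to 7437 in WT. Their part in the Lhx2 difference was not tested.

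The other members of the exon 4 lines were not called either. Isl1 had 53.3 and 44.8 scaled reads in CSex4, below all 4 WT libraries, and 72.9 and 105 in Deltaex4; the authors' deposited table gives -1.39 ± 0.63 (SE), adjusted p = 0.236, for CSex4. Lmx1a had 171 and 197 in CSex4, above all WT libraries, and 72.0 and 66.4 in Deltaex4; the CSex4 value in the authors' deposited table is 1.30 ± 0.54 (SE), adjusted p = 0.164. Isl2 had 9.60 and 15.8 in Deltaex4, below all 4 WT libraries, and 20.7 and 17.9 in CSex4, among them. Lmx1b (195 to 306), Lhx3 (10.5 to 46.1) and Lhx9 (0.96 to 5.27) overlapped the WT range in both lines. Lhx4 had 0 reads in both Deltaex4 libraries, which allows up to 3 reads in each by counting error alone, and 1 and 9 in CSex4.

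Ordered by mean level in NP, Lhx1 went from KO (153) through KO-L (706), CSex4 (1288) and KO-S (1308) to Deltaex4 (3580) and WT (4285). KO, KO-L and the CSex4 and KO-S pairs did not overlap in that order, CSex4 and KO-S overlapped each other, and WT overlapped every group above KO; Deltaex4 also overlapped WT without library a. For Isl2 the order was KO-S (4.72), Deltaex4 (12.7), KO-L (15.5), CSex4 (19.3), WT (23.8) and KO (134), with overlap between all neighbours except at both ends. For Lmx1a it was KO-L (21.2), Deltaex4 (69.2), WT (119.7), KO (169), CSex4 (184) and KO-S (335), where KO-L and KO-S did not overlap their neighbours.

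**Figure D4:**
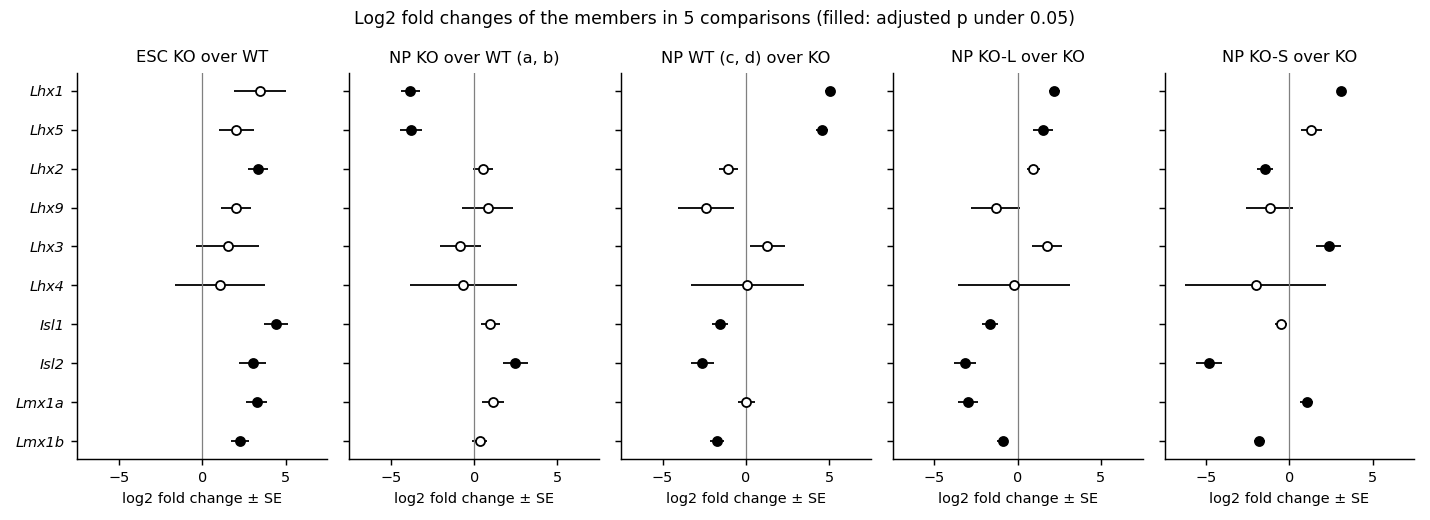
Log2 fold changes of the 10 members with their SE in 5 of the authors' comparisons; filled points have an adjusted p under 0.05. All points of ESC KO lie right of 0, while in NP the members split, with Lhx1 and Lhx5 left of 0 and Isl2 right of 0 in KO over WT and the sides exchanged in the rescues over KO.

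The effect of the KO differed between ESC and NP for several members. NP KO minus ESC KO was -3.44 ± 0.89 (SE) for Isl1, adjusted p = 0.00176, -2.81 ± 0.85 (SE) for Lhx2, adjusted p = 0.0108, and -1.93 ± 0.71 (SE) for Lmx1b, adjusted p = 0.0481, each from the authors' deposited log2 fold changes and adjusted over all genes tested. These are 3 of 6 members tested, where 14.3% of all genes differed. For all 3 the ESC change was called and the NP change against WT a and b was not, while Isl1 and Lmx1b were called in NP against WT c and d. Lmx1a (-2.14, 95% interval -3.91 to -0.36, adjusted p = 0.09999) and Isl2 (-0.56, -2.71 to 1.60) were not past the threshold. With the NP change taken against WT c and d, also from the authors' deposited log2 fold changes, the differences of Isl1 (-2.87 ± 0.85 SE, adjusted p = 0.00523) and Lhx2 (-2.29 ± 0.83 SE, adjusted p = 0.0292) stayed past the threshold. That of Lmx1b did not (-0.54 ± 0.69 SE, adjusted p = 0.655), and that of Lmx1a did (-3.28 ± 0.82 SE, adjusted p = 6.58e-04), so 3 of 6 members differed where 22.4% of all genes did. The Lmx1a and Lmx1b differences thus rest on which WT pair is used, as their WT levels do. Lhx1 and Lhx5 were not in this test because of their low mean in ESC; their values were opposite in sign, 3.48 and 2.04 in ESC in the authors' deposited tables against -3.82 and -3.79 in NP.

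Genes that work with the LIM homeobox factors were read from lists. In ESC KO, where 11% of all genes tested were called higher and 7.27% lower, 9 of 10 LIM cofactor and LIM-only genes were tested. Of these, 3 were called higher, Lmo1 (2.58 ± 0.67 SE) first, and 3 lower, Rlim (-1.70 ± 0.19 SE), a ubiquitin ligase that acts on LIM cofactors, first, in the authors' deposited table. Of the 10 spinal interneuron genes tested out of 11, 8 were called higher and 0 lower, led by Lbx1 (4.20 ± 1.34 SE) and Evx1 (3.51 ± 0.77 SE), and the list's median was 2.48 against 0.06 over all genes in the authors' deposited table. Of the 8 roof plate and midbrain dopamine genes tested out of 9, 3 were called higher and 0 lower, with Msx2 (2.38 ± 0.49 SE) and En2 (1.9003 ± 0.35 SE), in the authors' deposited table. Of the 6 motor neuron genes tested out of 8, 1 was called higher, Olig2 (1.27 ± 0.32 SE in the authors' deposited table), and 0 lower. Of the other 2 LIM homeobox genes, Lhx6 was called higher (1.55 ± 0.37 SE in the authors' deposited table) and Lhx8 was not.

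In NP KO against WT a and b, where 11.6% of all genes tested were called higher and 9.85% lower, calls in the lists were as follows. Of 6 motor neuron genes tested, 2 were called lower, Neurog2 (-6.98 ± 0.72 SE), a proneural factor, and Olig2 (-2.93 ± 0.97 SE), and 0 higher in the authors' deposited table. Of 10 interneuron genes tested, 2 were called higher, Gata2 (2.42 ± 0.39 SE) among them, and 1 lower, Lbx1 (-3.47 ± 0.61 SE), in the authors' deposited table. Of 8 roof plate and dopamine genes tested, 1 was higher and 3 lower, Wnt1 (-6.90 ± 0.55 SE) and Th (-2.55 ± 0.97 SE) among them, in the authors' deposited table. Lmo3 was the 1 cofactor called of 10 tested, at -3.62 ± 0.94 (SE) in the authors' deposited table.

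Against KO, the rescues had calls in both directions in these lists. The background was 10.9% higher and 13.8% lower with the long isoform and 16.4% and 18% with the short one. KO-S had 4 of 6 tested motor neuron genes called higher and 0 lower, led by Neurog2 (7.47 ± 0.59 SE) and Olig2 (5.34 ± 0.48 SE), with a median of 2.89 over the list of 8 against -0.04 over all genes in the authors' deposited table. KO-L had 1 of 7 higher, Neurog2 (4.80 ± 0.84 SE), and 1 lower, Mnx1 (-2.88 ± 0.49 SE), a motor neuron homeobox gene, in the authors' deposited table. Wnt1 was called higher in both, at 4.19 ± 0.70 (SE) in KO-L and 4.61 ± 0.62 (SE) in KO-S in the authors' deposited tables, as was Lmo3, at 3.64 ± 0.88 (SE) and 3.14 ± 0.96 (SE). Of the interneuron genes KO-L had 1 of 8 tested higher and 2 lower, and KO-S 1 of 9 higher and 3 lower. Of the roof plate and dopamine genes KO-L had 2 of 8 tested higher and 2 lower, and KO-S 2 of 7 higher and 1 lower. Of the cofactor and LIM-only genes, 10 tested in each, KO-L had 1 higher and 1 lower, and KO-S 2 higher and 1 lower.

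Lmx1b was the only member with a mean of at least 10 scaled reads in all 13 comparisons, so a like pattern could be sought for it alone. Among 11290 genes with a mean of at least 50 in all comparisons, the highest Pearson correlations of log2 fold change with Lmx1b were those of Bahd1 (0.945), Glrx (0.940) and Esx1 (0.929), over 13 comparisons that share libraries. They are given as a description.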

How the data were processed

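RNA-seq of 32 libraries was aligned and tested by the authors; the submitters' processing notes name Bowtie, TopHat, DESeq2 and DiffBind without versions, and the mouse build mm10. The authors deposited 13 tables that give, per gene, a mean of normalised counts (a signal value), a log2 fold change with its SE, the test score (fold change over SE), and a raw and an adjusted p-value. The 2 deposited lists of ChIP-seq regions give positions and 1 value per region, used as the authors' score to order regions within a list.

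The authors' calls at adjusted p under 0.05 were taken as deposited. Whole reads per library were recovered from the deposited means, because each mean is the average of whole reads divided by size factors: size factors were read from genes with a single read, and each member's mean was then solved for whole reads, starting from its lowest tables so that the higher ones had 2 unknown libraries. This gave 1 solution for 130 of 130 member entries and 32 libraries, and the same library read in several tables gave the same reads for 100% of genes, against at most 17.6% for other library pairs. On simulated counts 97.5 to 100% of genes under 60 reads on average were solved, and 0 were solved wrongly; at means of 100 to 800, 5 of 5 were solved in each NP table except WT over KO, with 2 of 5. At means of 800 to 7000 with 2 of the 4 libraries known, as for Lhx1 in NP, 20 of 20 were solved in each NP table and 0 wrongly. Recovered reads carry no test and cover counting error only. Differences between comparisons were tested as the difference of 2 log2 fold changes over the root of the summed squared SE. Benjamini-Hochberg adjustment ran over all genes with a mean of at least 10 in both tables, for 9 pairs of comparisons. Shared control libraries make this SE too large for pairs within ESC or within NP. The ESC KO and NP KO comparisons share no library, so their SE is not enlarged in this way. Tested on simulated data for KO-S minus KO-L in NP (15615 genes, 200 changed by a log2 difference of 3), the test of differences recovered 99.5% of the changed genes with 5.69% false calls.

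The deposited tables are named as paired, and the single-read fold changes in the NP tables fit 2 pairs; the deposited NP KO value of Lhx1 equals the mean of the ratios within pairs of libraries. All 7 ESC tables share the WT libraries, and in the 6 with 2 libraries against 3, WT library a has almost no weight. Values were computed with Python 3.11.15, pandas 2.3.3, numpy 2.4.6 and scipy 1.17.1.

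Named genes are the 10 members, Suz12, and, of each list, at most the 2 called genes with the largest change in the comparison described. The members and lists were chosen with earlier results of these data known. Alternatives tried were other thresholds, a minimum mean, adjustment over all genes, a minimum fold change, other distances and values for regions, leaving out libraries, and, chosen after seeing the data, NP WT without library a and the NP KO effect against WT c and d.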

Additional observations from a re-analysis of the deposited data

Results flagged for a closer look

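The KO effect differed between NP and ESC. As NP minus ESC on the log2 scale, from the authors' deposited tables, the differences were -3.44 for Isl1, -2.81 for Lhx2 and -1.93 for Lmx1b, each past an adjusted p of 0.05 in the test of the difference. Taken against WT libraries c and d, those of Isl1 (-2.87) and Lhx2 (-2.29) stayed past it and that of Lmx1b (-0.54, adjusted p = 0.655) did not. For Lhx1 (-7.30), Lhx5 (-5.83) and Lhx3 (-2.35) every KO library lay above every WT library in ESC and below every WT library in NP, in scaled reads. For Lhx3 in ESC this rested on 3 to 4 reads in KO against 0 to 3 in WT, so its order there comes from scaling and shows no rise. How many of all genes change sides in this way was not counted. These 3 differences were not tested with the others, because the ESC means are under 10; the test with no minimum mean, which Lhx1 and Lhx5 passed, is given among the processing alternatives.

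Lhx4 in the 4 NP WT libraries had 1 library apart, with a gap to its nearest neighbour of 0.927 of the group's range. It held 5 reads where the others held 2, 3 and 2, and chance gives such a gap in about 1 of 20 groups; the 10 members gave 20 such tests, with 1 found.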

How the results depend on the processing

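The other thresholds, adjustments and minimum values reuse the deposited log2 fold changes, so the direction of the 27 member calls could not change. Only calls could be gained or lost. The number of calls was 22 at an adjusted p under 0.01, 30 at 0.1, 26 with p-values adjusted over all genes, 28 with a mean of at least 10 and 26 with a log2 fold change of at least 1. ESC KO-L3D went from 2 called members to 0 at an adjusted p under 0.01. NP Deltaex4 went from 0 to 1 at an adjusted p under 0.1, and to 1 with a mean of at least 10, in both cases Lhx2. The members whose KO effect differed between NP and ESC went from 3 to 1 with a mean of at least 50; fewer genes are tested there. With no minimum mean, Lhx1 (-7.30 ± 1.65 SE, adjusted p = 3.01e-04) and Lhx5 (-5.83 ± 1.24 SE, adjusted p = 1.05e-04) also differed and Lmx1b no longer did. With the NP KO effect taken against WT c and d the number stayed at 3, but Lmx1b was lost (-0.54, adjusted p = 0.655) and Lmx1a gained (-3.28, adjusted p = 6.58e-04). The region counts stayed at 10 members at distances of 0 and 10000 bp and at values under 0.001; by the start site alone 9 members met an H3K27me3 region and 8 a Suz12 region, since Lhx5 has no start site in the table used and the Suz12 region of Lhx3 lies farther from its start sites. The authors' tests could not be rerun with a library left out, since whole reads were recovered for few genes. Leaving out each library in turn moved the log2 ratio of mean scaled reads beyond its spread in 1 of 120 values. That spread is the one between single libraries, which leaving out 1 library seldom exceeds, so the count says little about the calls. In all 27 called values the groups' libraries did not overlap, so no ratio could reverse, and 0 did. These values were selected by their call and non-overlap was not counted over all genes, so it is no separate evidence. No paired analysis was possible because the deposited tables already hold the authors' own fits, named as paired, and whole reads were recovered for too few genes to refit them with or without the pairs. Depth limits Lhx3 and Lhx4 in ESC, at 0 to 8 reads per library.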
